A study of Mus musculus with 2 samples.

Results

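The genes described here are 37 genes of glucose uptake, glycolysis, lactate export and the response to low oxygen, measured by bulk mRNA sequencing in skin wounds of WT and PU.1-/- mice. They were chosen by name from what these genes are known to do, with earlier results of these data known. All 37 were found among the 24346 gene symbols listed for each library. Both libraries came from the C57BL/6J strain, from pups wounded with a full-thickness dorsal incision when 1 day old, and the tissue was taken 24 h later. The methods describe incisions, while the design text calls the wounds excisional. Spi1 encodes PU.1, which blood cell precursors need to form myeloid and lymphoid cells, and the PU.1-/- line (PU.1_KO in the labels) is described as without macrophages, neutrophils, mast cells and T cells in the whole animal. The other group, the WT littermates, carries no such change. There was 1 library per genotype, and how many pups went into each is not given in the sources used here. No test across animals was therefore possible, no p-value is given, and the 95% intervals below cover counting error only.

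Cells break down glucose to pyruvate in the chain of reactions called glycolysis, and they turn pyruvate to lactate when oxygen is short or when demand is high. Low oxygen also stabilises the HIF alpha subunits, which the EGLN prolyl hydroxylases otherwise mark for destruction, and HIF then raises the transcription of glucose transporters, glycolytic enzymes and a set of other targets by binding the core letters ACGTG or GCGTG. Fresh wounds are known to be short of oxygen because vessels are cut, and arriving leukocytes, which rely on glycolysis, use both glucose and oxygen.

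The libraries held an estimated 13800000 (WT) and 15900000 (PU.1-/-) fragments, and levels are given as FPKM, read numbers scaled to transcript length and library size. Spi1 stood at 35.4 (WT) and 1.45 FPKM (PU.1-/-). Skin was recognisable in both, with Krt14, a basal keratinocyte keratin, at 4659 and 5195 FPKM and Col3a1, a fibroblast collagen, at 1042 and 1110 FPKM. The libraries also differed in sex-linked genes, since the Y-linked gene Ddx3y was at 21.0 FPKM in WT and listed at 0 in PU.1-/-, while Xist, which coats the silenced X chromosome, was listed at 0 in WT and at 9.48 FPKM in PU.1-/-. Genotype and sex cannot be told apart in these libraries, and Pgk1 is the member on the X chromosome. G6pdx and Pfkfb1, which are named below and are not members, also lie on the X chromosome. In whole tissue, fewer cells of a type and less RNA per cell cannot be told apart either.

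The sequences before the start sites are shown first for the members on which the results turn. They are the 250 bases upstream of a start site of RefSeq on GRCm38.p6, the assembly that mm10 is built from, and 33 of the 37 members had such a sequence, while Slc2a3, Epas1, Bnip3l and Ndrg1 had none in the table used. Hk3 is shown because it was listed at 0 in the PU.1-/- library, and the capitals mark GAGGAA, read here on the opposite strand, the core of the site that PU.1 is known to bind.
Hk3, chr13:55021386-55021635, minus strand: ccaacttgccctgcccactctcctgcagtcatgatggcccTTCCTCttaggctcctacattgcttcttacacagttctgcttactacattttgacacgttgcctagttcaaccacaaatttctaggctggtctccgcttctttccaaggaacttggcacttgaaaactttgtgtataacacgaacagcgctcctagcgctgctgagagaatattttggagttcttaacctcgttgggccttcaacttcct
Egln3 and Aldoc are shown because they were past 2-fold in the direction of PU.1-/-, and Ankrd37 and Bnip3 as HIF targets that were higher by less. Capitals mark ACGTG or GCGTG on either strand.
Egln3, chr12:54203875-54204124, minus strand: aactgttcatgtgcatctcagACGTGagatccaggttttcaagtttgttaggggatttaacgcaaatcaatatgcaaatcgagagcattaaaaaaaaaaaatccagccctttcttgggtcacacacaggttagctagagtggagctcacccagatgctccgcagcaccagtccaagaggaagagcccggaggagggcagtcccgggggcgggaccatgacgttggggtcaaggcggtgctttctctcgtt
Aldoc, chr11:78322823-78323072, plus strand: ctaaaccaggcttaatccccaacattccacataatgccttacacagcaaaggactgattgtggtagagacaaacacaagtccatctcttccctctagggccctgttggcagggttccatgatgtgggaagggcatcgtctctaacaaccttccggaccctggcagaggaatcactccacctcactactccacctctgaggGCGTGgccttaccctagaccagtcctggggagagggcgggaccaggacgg
Ankrd37, chr8:45999851-46000100, minus strand: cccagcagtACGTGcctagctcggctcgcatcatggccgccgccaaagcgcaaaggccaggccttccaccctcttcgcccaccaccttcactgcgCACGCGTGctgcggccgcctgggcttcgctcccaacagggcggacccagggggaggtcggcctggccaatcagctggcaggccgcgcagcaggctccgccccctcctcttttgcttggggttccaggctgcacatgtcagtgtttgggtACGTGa
Bnip3, chr7:138909507-138909756, minus strand: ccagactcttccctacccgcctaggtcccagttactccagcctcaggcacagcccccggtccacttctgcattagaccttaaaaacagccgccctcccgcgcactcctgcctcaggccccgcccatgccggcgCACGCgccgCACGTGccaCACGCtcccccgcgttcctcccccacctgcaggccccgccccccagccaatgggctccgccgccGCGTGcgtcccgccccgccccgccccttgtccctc
Ldha and Pgk1 are shown as abundant enzymes whose levels differed little between the 2 libraries.
Ldha, chr7:46845554-46845803, plus strand: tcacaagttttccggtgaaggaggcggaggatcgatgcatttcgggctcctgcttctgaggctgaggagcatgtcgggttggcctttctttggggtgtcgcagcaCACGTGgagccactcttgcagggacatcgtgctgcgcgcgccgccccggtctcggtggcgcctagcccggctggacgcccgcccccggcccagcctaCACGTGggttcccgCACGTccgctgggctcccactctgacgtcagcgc
Pgk1, chrX:106186850-106187099, plus strand: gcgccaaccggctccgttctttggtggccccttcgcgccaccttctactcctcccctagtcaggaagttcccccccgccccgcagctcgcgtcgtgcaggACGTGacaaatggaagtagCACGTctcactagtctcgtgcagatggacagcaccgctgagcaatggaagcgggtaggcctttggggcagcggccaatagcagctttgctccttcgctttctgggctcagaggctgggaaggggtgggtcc
Aldoc and Ldha have 2 start sites in the table, and the site with the most matches is shown, or the upstream site where they were equal. Matches in CACGTG overlap, since these letters read the same on both strands and are counted once for each.
At 1 or more of their start sites, 29 of the 33 members (87.9%) held ACGTG or GCGTG, against 41.5% of all 27025 genes in the table. Genes with more start sites have more room for a match. Counted by start site, the letters stood before 74.5% of 51 member sites, against 38.6% of all 32851 sites. The members had been picked partly as known HIF targets, so this is a description of the list. The letters stood before 19 of the 21 members for glucose transport, glycolysis and pyruvate (90.5%) and before 10 of the 12 oxygen sensing and HIF target members (83.3%). GAGGAA was found before 13 of the 33 members (39.4%), against 25.9% of all genes. Counted by start site, GAGGAA stood before 31.4% of member sites, against 23.3% of all sites. Its single match in the Hk3 sequence began at position −210, counted from the start site. The Egln3, Aldoc and Bnip3 sequences shown above also held 1 GAGGAA match each, left in lower case. The Hk3 sequence likewise held 1 unmarked ACGTG match. Neither the Ldha nor the Pgk1 sequence lacked the HIF letters, with 5 and 2 matches, and the Egln3 sequence, from the member with the highest ratio, held 1, at position −229. A match of letters is a description and no proof of binding.

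Most of the 37 genes had similar levels in the 2 wounds. Slc2a3, a glucose transporter, and Hk3, a hexokinase, were at least 2-fold lower in the PU.1-/- wound, and Aldoc, an aldolase, and Egln3, a prolyl hydroxylase, were at least 2-fold higher. For these calls, values below 0.1 FPKM were first raised to 0.1. The 2 lower members make up 5.41% of the 37, beside 4.34% of all 24346 genes listed, and the 2 higher members 5.41%, beside 2.32%, so these are shares of very few genes. At 1.5-fold, 2 members were lower (all genes 7.67%) and 4 were higher (all genes 5.79%). Among the 29 members of at least 10 FPKM in 1 or both libraries, 0 were 2-fold lower (all genes of that level 2.88%) and 1 was 2-fold higher (0.882%), while 0 were 1.5-fold lower (5.25%) and 2 were 1.5-fold higher (3.43%). Of these 29, 19 were higher by any amount, or 65.5%, beside 48.2%, and 18 (62.1%) when Eno1 is summed with its near-identical copy Eno1b, which turns its direction. Ratios are given as PU.1-/- over WT, and the median log2 value was 0.10 over the members, 0.00 over all genes listed and −0.01 over genes of at least 10 FPKM in 1 or both libraries. The value over the members is that of Eno1 itself, and it was 0.05 with Eno1 and Eno1b summed.
By role, the medians differed. Over the 22 genes of glucose transport, glycolysis and pyruvate the median log2 ratio was −0.02, with 11 genes above 0 and 11 below, or −0.05 with 10 above and 12 below when Eno1 and Eno1b are summed. Over the 15 genes of oxygen sensing and HIF targets it was 0.34, with 12 above 0 and 3 below. Of all genes of at least 1 FPKM in 1 or both libraries, a level that all 15 reached, 49.3% lay above 0. The split was by role, so HIF targets among the 22, such as Hk2 and Slc16a3, are not in the 15. Of the 29 members of at least 10 FPKM, 16 (55.2%) had a counting interval wholly above a ratio of 1, beside 28.5% of the 6986 genes of that level that have a transcript length. For 8 (27.6%) it lay wholly below 1, beside 29.0%. With Eno1 and Eno1b summed these counts were 15 (51.7%) and 9 (31.0%). They hold for the FPKM as deposited and were not repeated after rescaling. Gpi1, among the 16, had a lower bound of 1.0003. Other cell types of skin also lay above 0, with a median of 0.17 for keratinocyte markers (8 of 10 above 0), 0.26 for fibroblast markers (10 of 10) and 0.22 for endothelial markers (9 of 10). The part of these in the ratios of the members was not tested.

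**Figure D1:**
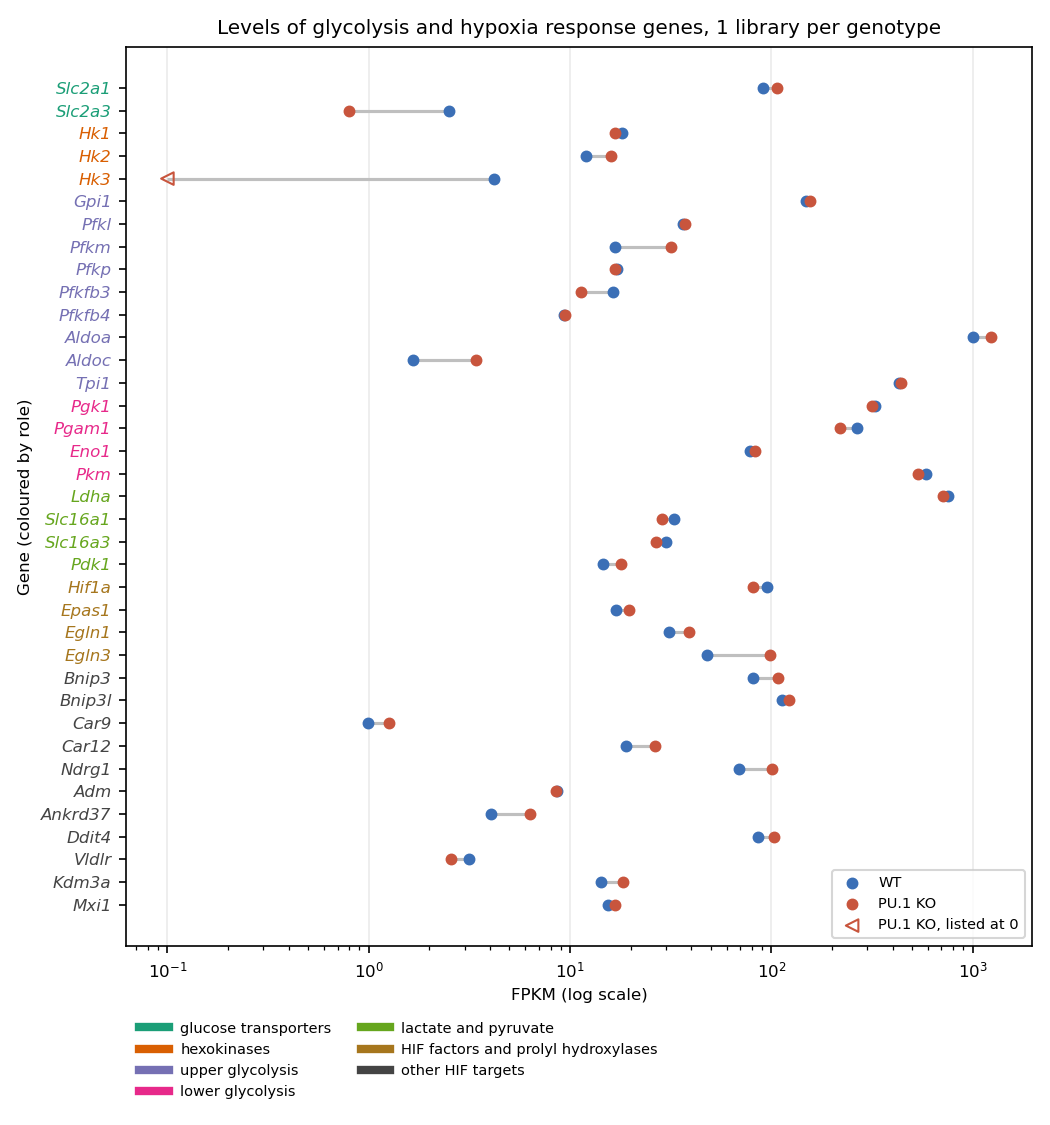
Level of each of the 37 genes in FPKM (log axis) in the WT library (blue) and the PU.1-/- library (red), with gene names coloured by role and a grey line between the 2 values. Most pairs nearly touch, and the long lines belong to Hk3 (listed at 0 in PU.1-/-, drawn at 0.1), Slc2a3, Pfkm, Aldoc and Egln3.

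Glucose enters cells through facilitative transporters. Slc2a1, which encodes GLUT1, the transporter of most tissues, was at 91.4 (WT) and 107 FPKM (PU.1-/-), a ratio of 1.17 (interval 1.12 to 1.22). Slc2a3, which encodes GLUT3, a transporter of high affinity found in neurons and leukocytes, was at 2.52 (WT) and 0.802 FPKM (PU.1-/-), a ratio of 0.319 (0.224 to 0.447) from about 131 and 48 reads. The gene lies on chromosome 6 of GRCm38 from 122727809 to 122802363. Slc2a3 was thus a minor transporter in both wounds, making 2.68% of the FPKM summed with Slc2a1 in WT and 0.747% in PU.1-/-.
Hexokinases trap glucose in the cell by phosphorylation. Hk1, the form of most tissues, was at 18.2 (WT) and 16.8 FPKM (PU.1-/-), and its interval held 1. Hk2, the insulin-responsive form of muscle and fat and a HIF target, was at 11.9 and 16.0 FPKM, a ratio of 1.34 (1.23 to 1.46). Hk3, a form found mainly in myeloid cells, on chromosome 13 from 55005985 to 55021475, was at 4.19 FPKM in WT, about 175 reads, and was listed at 0 in PU.1-/-. A count of 0 allows up to 3 reads, or 0.0626 FPKM at this depth and length. Hk3 made 12.2% of the summed hexokinase FPKM in the WT wound, and the sum of the 3 genes was 34.3 (WT) and 32.8 FPKM (PU.1-/-). The share of Hk2 was 34.8% in WT and 48.8% in PU.1-/-.
Leukocyte markers were also lower in the PU.1-/- library. All 10 macrophage markers were at least 2-fold lower in PU.1-/-, with summed levels of 658 (WT) and 5.94 FPKM (PU.1-/-), and 6 of them, C1qa, C1qb, C1qc, Tyrobp, Adgre1 and Fcgr1, were listed at 0. Of the 9 neutrophil markers listed, 8 were at least 2-fold lower and 5 were at 0 in PU.1-/-, with sums of 12588 and 3676 FPKM that were mostly S100a8 (6600 and 2129 FPKM) and S100a9 (5311 and 1516 FPKM). Of 10 mast cell markers, 9 were at least 2-fold lower, with sums of 751 and 15.5 FPKM. The part of leukocytes in the levels of Slc2a3 and Hk3 was not tested.

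**Figure D2:**
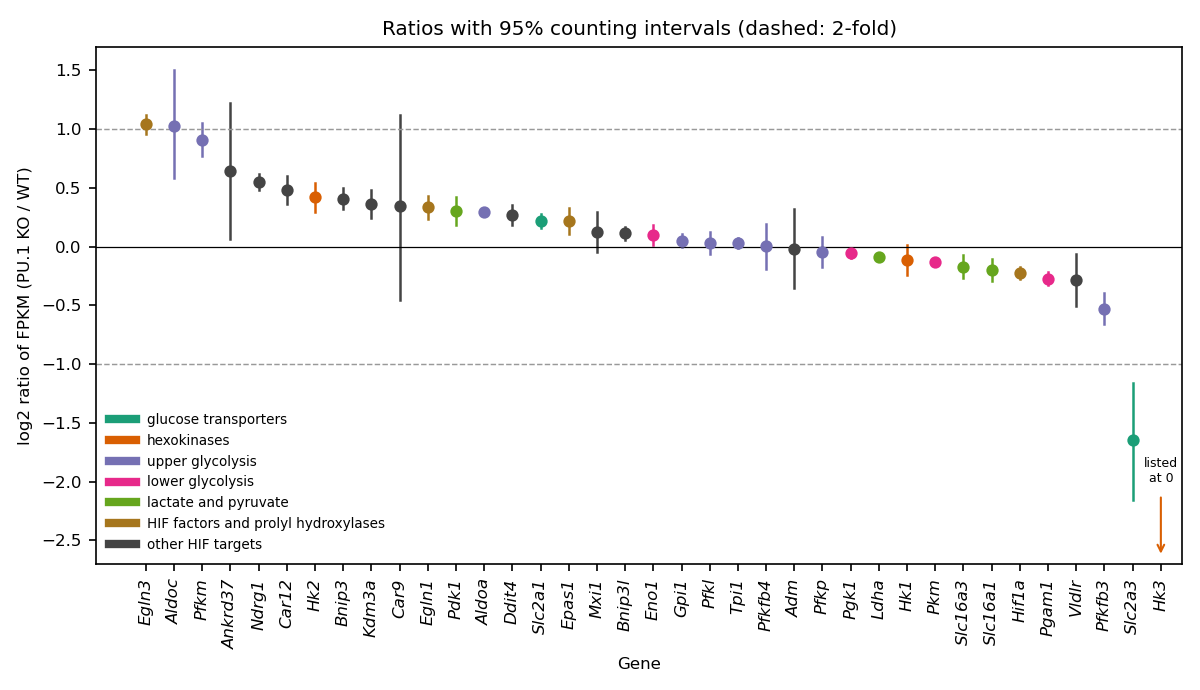
Log2 ratio of FPKM (PU.1-/- over WT) for each gene, ordered from highest to lowest and coloured by role, with 95% counting intervals as vertical lines and dashed lines at 2-fold. Egln3 and Aldoc lie just above the upper line, Slc2a3 lies below the lower line, and Hk3, listed at 0 in PU.1-/-, is drawn as an arrow without a value.

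The upper steps of glycolysis commit glucose to breakdown and split it to triose phosphates. Gpi1, glucose-6-phosphate isomerase, was at 149 (WT) and 155 FPKM (PU.1-/-). Tpi1, triose phosphate isomerase, was at 430 and 440 FPKM. These isomerases were thus nearly equal in the 2 libraries.
Phosphofructokinase is the main control step and is built from subunits of the liver, muscle and platelet types. Pfkl, the liver type, was at 36.2 (WT) and 37.0 FPKM (PU.1-/-). Pfkp, the platelet type, was at 17.2 and 16.6 FPKM, and the intervals of both held 1. Pfkm, the muscle type, on chromosome 15 from 98092589 to 98132447, was at 16.8 (WT) and 31.6 FPKM (PU.1-/-), a ratio of 1.88 (1.71 to 2.07). Its share of the 3 subunits was 23.9% in WT and 37.1% in PU.1-/-.
Pfkfb3 and Pfkfb4 encode enzymes that make fructose 2,6-bisphosphate, the activator of phosphofructokinase. Pfkfb3, the inducible form, was at 16.4 (WT) and 11.4 FPKM (PU.1-/-), a ratio of 0.693 (0.632 to 0.760), the lowest among the members of at least 10 FPKM. Pfkfb4 was at 9.37 and 9.39 FPKM, with a ratio of 1.002 (0.878 to 1.14). The related genes Pfkfb1 and Pfkfb2, which were not members, were at 2.36 and 3.17 FPKM in WT and at 1.68 and 3.99 FPKM in PU.1-/-.
Aldolases split the 6-carbon sugar. Aldoa, the main aldolase of muscle and most other tissues and the most abundant member, was at 1004 (WT) and 1231 FPKM (PU.1-/-), a ratio of 1.23 (1.203 to 1.25). Aldoc, the brain form, on chromosome 11 from 78323073 to 78327781, was at 1.66 and 3.40 FPKM, a ratio of 2.04 (1.502 to 2.83). Its interval reached below 2, and it made 0.165% of the aldolase FPKM in WT and 0.275% in PU.1-/-.

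The lower steps make ATP and pyruvate. Among the 4 members of these steps, Pgk1, Pgam1 and Pkm were slightly lower in the PU.1-/- wound and Eno1 was slightly higher. Of the genes of these steps named below that were not members, Gapdh, Eno3 and Pgam2 were higher and Eno1b was lower. Pgk1, phosphoglycerate kinase, was at 328 (WT) and 316 FPKM (PU.1-/-), a ratio of 0.963 (0.933 to 0.993). Pgam1, the phosphoglycerate mutase of most tissues, was at 266 and 220 FPKM, a ratio of 0.828 (0.798 to 0.859). Pkm, pyruvate kinase, was at 586 and 535 FPKM, a ratio of 0.913 (0.894 to 0.932). The M1 and M2 products of Pkm come from 1 gene and are not separated in these values.
Eno1, alpha-enolase, was at 77.9 (WT) and 83.4 FPKM (PU.1-/-), a ratio of 1.07 (1.008 to 1.14). Its level is uncertain because it has a near-identical copy, Eno1b, a gene named here after its values were seen, which was listed at 274 (WT) and 255 FPKM (PU.1-/-), more than Eno1 itself. The sum of both was 352 and 338 FPKM, a log2 ratio of −0.06, of the opposite sign to the 0.10 of Eno1 alone. As a ratio the sum gave 0.961 (0.934 to 0.990). How the authors' counting divided reads between the copies was not tested. Gapdh, Pgk1, Pgam1, Ldha and other enzymes of this pathway also have processed pseudogenes, which could take or give reads in the same way.
Ldha, the lactate dehydrogenase subunit that favours lactate, was at 758 (WT) and 715 FPKM (PU.1-/-), a ratio of 0.943 (0.924 to 0.963). Its partner Ldhb, not a member, was at 19.9 and 18.4 FPKM, so Ldha made 97.4% of the sum in WT and 97.5% in PU.1-/-. Lactate leaves through monocarboxylate transporters, of which Slc16a1 (MCT1) was at 32.7 and 28.5 FPKM and Slc16a3 (MCT4, the HIF-responsive exporter) at 30.0 and 26.6 FPKM. Their ratios of 0.872 (0.818 to 0.929) and 0.889 (0.831 to 0.950) were alike in size. Pdk1, a kinase that shuts pyruvate dehydrogenase and so keeps pyruvate from the mitochondria, was at 14.5 (WT) and 17.9 FPKM (PU.1-/-), a ratio of 1.23 (1.14 to 1.34). Over the 17 member enzymes and regulators from the hexokinases to Ldha, the sum was 3732 (WT) and 3838 FPKM (PU.1-/-), a log2 ratio of 0.04. Gapdh, Eno1b, Eno3 and Pgam2 were not members and are not in this sum.

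**Figure D3:**
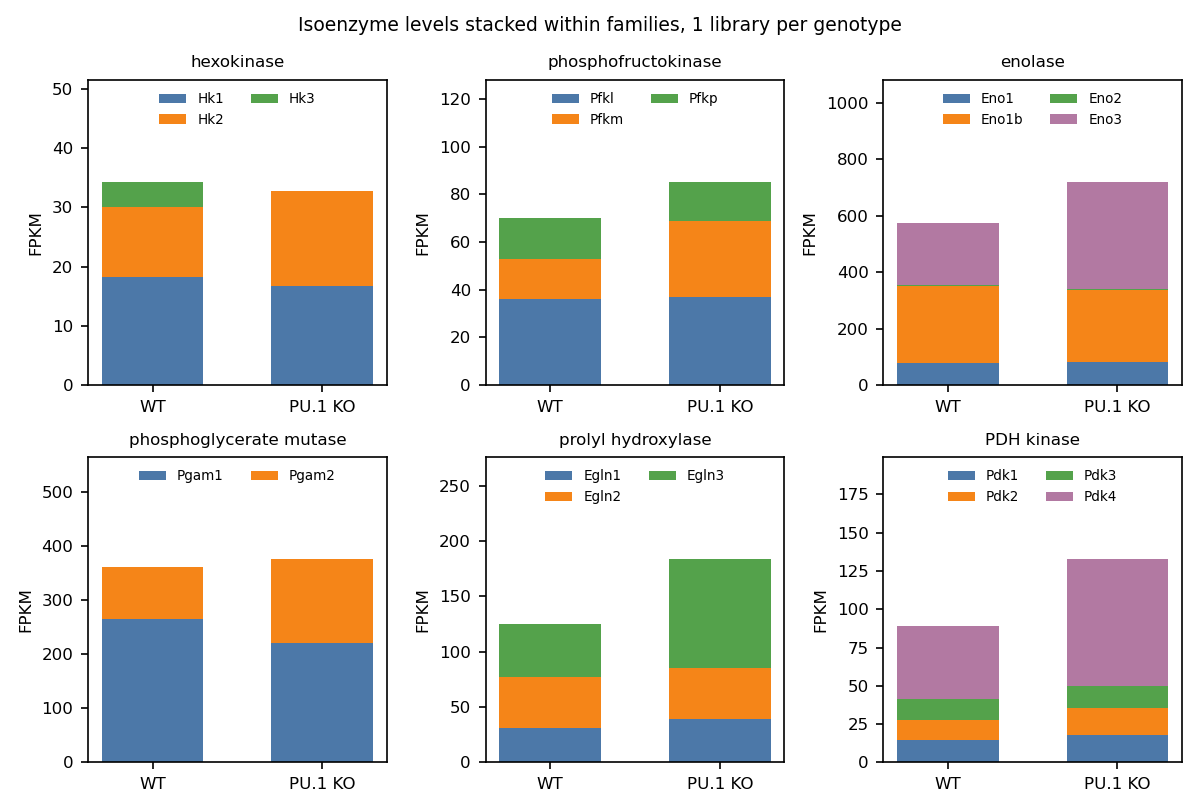
FPKM of related enzymes stacked within each of 6 families, for the WT and the PU.1-/- library (bars start at 0). Hk3 is seen in the WT bar only, and the segments of Pfkm, Eno3, Pgam2, Egln3 and Pdk4 are taller in PU.1-/- (Pfkm 31.6 against 16.8 FPKM).

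Genes of muscle forms outside the members also lay above a ratio of 1. Eno3, the muscle enolase, was at 219 (WT) and 381 FPKM (PU.1-/-) (log2 ratio 0.79). Pgam2, the muscle phosphoglycerate mutase, was at 95.03 and 156 FPKM (0.72), so that its share of the pair with Pgam1 was 26.3% in WT and 41.4% in PU.1-/-. These 2 genes, like Gapdh below, were not members but come from the same pathway. The 12 skeletal muscle markers were all higher in PU.1-/-, by 0.52 to 1.13 on the log2 scale with a median of 0.67, and summed to 10848 (WT) and 17906 FPKM (PU.1-/-). Acta1, the actin of skeletal muscle, was at 3224 and 5955 FPKM. The log2 ratios of Pfkm (0.91), Eno3 and Pgam2 fell inside that range, while those of Hk2 (0.42) and Aldoa (0.29), which muscle also uses, fell below it. The part of muscle in these values was not tested.

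HIF itself is a pair of an oxygen-sensitive alpha and a stable beta subunit, and its activity is set mainly by protein stability, which mRNA does not show. Hif1a was at 94.96 (WT) and 81.3 FPKM (PU.1-/-), a ratio of 0.856 (0.825 to 0.887). Epas1, which encodes HIF-2 alpha and is abundant in endothelium, was at 16.8 and 19.6 FPKM, a ratio of 1.16 (1.08 to 1.25). The alpha subunits thus lay on opposite sides of 1, Hif1a making 83.5% of the 3 alpha genes in WT and 78.5% in PU.1-/-.
The prolyl hydroxylases use oxygen to tag HIF alpha, and Egln1 and Egln3 are themselves HIF targets, which makes them part of a feedback loop. Egln1, the main HIF hydroxylase, was at 31.0 (WT) and 39.1 FPKM (PU.1-/-), a ratio of 1.26 (1.18 to 1.35). Egln3, on chromosome 12 from 54178981 to 54203874, was at 47.9 and 98.5 FPKM, a ratio of 2.06 (1.94 to 2.18) from about 1630 and 3849 reads. Egln2, the form that is not induced by HIF and not a member, was at 46.6 and 46.2 FPKM. Egln3 therefore made 38.2% of the summed hydroxylase FPKM in WT and 53.6% in PU.1-/-. It was the only member of at least 10 FPKM past 2-fold in either direction, where 0.882% of all genes of that level were as much higher. Egln3 is also expressed in skeletal muscle, and its log2 ratio of 1.04 lay inside the range of the muscle markers given above. The part of muscle in the level of Egln3 was not tested.

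The other HIF targets were mostly higher in the PU.1-/- wound by less than 2-fold, 9 of 11 lying above a ratio of 1 and 7 with an interval wholly above it. All 11 reached 1 FPKM in 1 or both libraries, and of all genes of that level 49.3% lay above 1 and 24.4% of those with a transcript length had an interval wholly above it. Ndrg1, a stress-response gene, was at 69.0 (WT) and 101 FPKM (PU.1-/-), a ratio of 1.46 (1.39 to 1.54). Bnip3, a mitochondrial protein that promotes mitophagy, was at 81.0 and 108 FPKM, a ratio of 1.33 (1.25 to 1.41). Its relative Bnip3l, which also clears mitochondria from maturing red blood cells, was at 113 and 123 FPKM, a ratio of 1.08 (1.04 to 1.13). Of 10 red blood cell markers, 7 were listed, with summed levels of 551 and 926 FPKM, and their part in Bnip3l was not tested.
Carbonic anhydrases offset the acid that glycolysis makes. Car12 was at 19.0 (WT) and 26.4 FPKM (PU.1-/-), a ratio of 1.39 (1.28 to 1.51). Car9, a widely used marker of hypoxia, was near the limit of what these libraries can measure, at 0.989 and 1.26 FPKM from about 25 and 36 reads, and its interval of 0.732 to 2.18 held 1. No difference in Car9 was thus detected at this depth.
Ankrd37, an ankyrin repeat gene and HIF target, was at 4.07 (WT) and 6.35 FPKM (PU.1-/-), a ratio of 1.56 with a wide interval of 1.04 to 2.33. Ddit4 (REDD1), an inhibitor of mTORC1, was at 85.7 and 103 FPKM, a ratio of 1.21 (1.14 to 1.28). Kdm3a, a histone H3 lysine demethylase, was at 14.3 and 18.4 FPKM, a ratio of 1.29 (1.18 to 1.40). These 3 genes lay on the same side of 1.
Mxi1, an antagonist of MYC, was at 15.4 (WT) and 16.8 FPKM (PU.1-/-), and Adm, the vasodilator peptide adrenomedullin, at 8.63 and 8.53 FPKM, and both intervals held 1. Vldlr, a lipoprotein receptor, was at 3.13 and 2.58 FPKM, a ratio of 0.822 (0.703 to 0.960). Among the 11 other HIF targets it was the only gene with an interval wholly below 1.

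**Figure D4:**
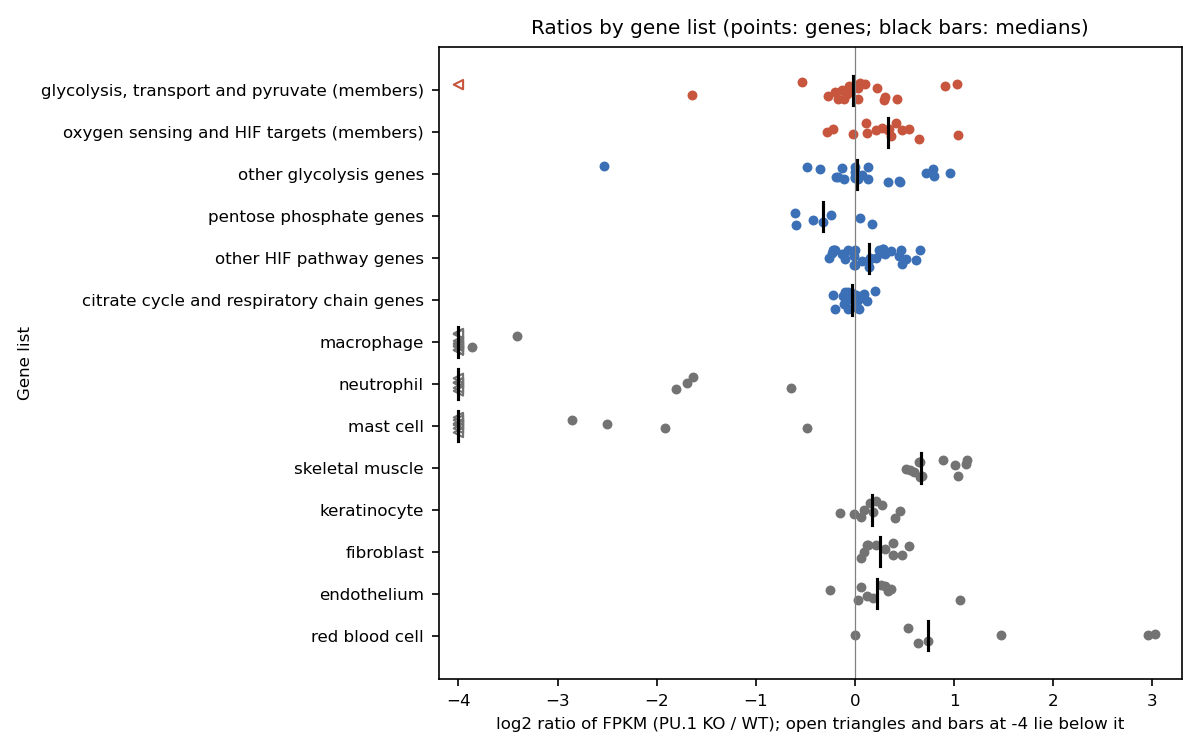
Log2 ratios of single genes (points) by list, with black bars for medians, for the members in red, other genes of the pathways in blue and cell type markers in grey. The oxygen sensing and HIF target members centre on 0.34 and the glycolysis members on −0.02, between the leukocyte markers on the left, drawn at −4 where they lie below it, and the skeletal muscle markers at 0.67.

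Other genes of the same pathways, outside the 37, were counted in the same way. Of 22 further glycolysis genes, which had a median log2 ratio of 0.02, none of the 15 that reached 1 FPKM was past 2-fold. The most abundant in WT were Gapdh, at 1404 (WT) and 1541 FPKM (PU.1-/-), and Bsg, the chaperone of the lactate transporters, at 256 and 262 FPKM, while in PU.1-/- the second was Eno3. Pdk4, a pyruvate dehydrogenase kinase of muscle and fasting tissue, was at 47.9 and 82.6 FPKM.
Of 30 further HIF pathway genes, none was past 2-fold, the median was 0.14, and 18 lay above 0 and 11 below. Mif and Fam162a were the most abundant, at 391 and 310 FPKM in WT and at 334 and 343 FPKM in PU.1-/-. Vegfa, the angiogenic growth factor, was at 13.2 and 20.8 FPKM, a ratio of 1.58 (interval 1.42 to 1.75), and Ndufa4l2, a mitochondrial HIF target, at 87.8 and 134 FPKM. The classical HIF-responsive matrix enzymes P4ha1 and P4ha2 were at 15.9 and 10.9 FPKM in WT and at 14.8 and 9.45 FPKM in PU.1-/-, and their intervals held 1.
The pentose phosphate pathway draws on the same glucose 6-phosphate to make NADPH, and 5 of its 7 genes had an interval wholly below 1, beside 29.0% of all genes of at least 10 FPKM, a level that all 7 reached. Their median log2 ratio was −0.32. Taldo1 was at 131 (WT) and 86.2 FPKM (PU.1-/-) (log2 ratio −0.60), and G6pdx, which encodes the entry enzyme, at 42.1 and 28.0 FPKM (−0.59). Pgls, second to Taldo1 in WT and above it in PU.1-/-, was at 103 and 107 FPKM. None of the 7 was past 2-fold. The 20 genes of the citrate cycle and the respiratory chain lay between −0.22 and 0.20 with a median of −0.03, and their most abundant members Atp5b and Cox4i1 were at 863 and 768 FPKM in WT and at 868 and 754 FPKM in PU.1-/-.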

How the data were processed

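The data are FPKM values of mRNA libraries from skin wounds of WT and PU.1-/- pups, 1 library per genotype, as deposited. The authors made stranded mRNA libraries, mapped single-end reads to mm10 and calculated FPKM with Cuffnorm. The submitters' processing notes list TopHat2 2.1.1, Bowtie2 2.2.8, SAMtools 0.1.18 and Cuffdiff 2.2.1. The annotation is not given in the sources used here.

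Values below 0.1 FPKM were raised to 0.1 before ratios were taken, and 2-fold was the threshold. Read numbers were estimated from the spacing of low FPKM values, which come in units of whole reads. Below 2 FPKM in WT, 459 genes had the same quotient of 1.15 (WT divided by PU.1-/-), that of equal read numbers. Genes of 1 transcript then gave the FPKM of 1 read, taking the longest RefSeq-linked GENCODE M21 transcript less 200 nt. Transcripts of 300 nt or more were available for 21696 genes (89.1%), all 37 members among them. Of 1924 single-transcript genes of 0.5 to 10 reads, 71.7% lay within 0.1 of a whole read. An error in length changes the width of an interval, not the ratio. Intervals are exact binomial (Clopper-Pearson) at 95%, and the procedure was tested on simulated data. They leave out PCR copies, differences between animals and the choice of library scaling.

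The 37 members, the lists and the markers were chosen with earlier results of these data known. The naming rule covers the members, Spi1, Gapdh, genes of the other pathway lists past 2-fold with at least 1 FPKM, and the 2 most abundant genes of each list. Further genes (Eno1b, Eno3, Pgam2, Pdk4, Ldhb, Egln2, Pfkfb1, Pfkfb2, Vegfa, Ndufa4l2, P4ha1, P4ha2, G6pdx, the macrophage markers at 0, Ddx3y and Xist) were named after their values were seen. The software was Python 3.11.15 with matplotlib 3.10.9, scipy 1.17.1, numpy 2.4.6 and pandas 2.3.3.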

Additional observations from a re-analysis of the deposited data

How the results depend on the processing

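Rescaling the libraries to equal FPKM sums, to a median ratio of 1, or to equal sums outside muscle and leukocyte markers raised the log2 ratios of genes above the floor by 0.05, 0.01 and 0.04, and left 2 members lower and 2 higher. With equal FPKM sums, the ratios of Aldoa, Tpi1, Pgk1, Pkm and Ldha moved outside their own counting intervals. With equal sums outside muscle and leukocyte markers, those of Aldoa, Pkm and Ldha did so. Across the floor, pseudocount, filter and scaling settings, 1 of the 37 members, Adm, changed sign, between −0.02 and 0.03, and the median over the members lay between 0.10 and 0.14. With log2(FPKM + 1), 1 member was at least 2-fold lower and 1 higher. Among genes of at least 10 FPKM, 0 were lower and 1 was higher, since Slc2a3, Hk3 and Aldoc are below that level. Of the fold thresholds, 1.5-fold gave 4 higher members and 3-fold gave 0, and both gave 2 lower. Leaving out Pfkm, Aldoa, Hk2, Egln3, Vldlr and Slc16a3, which muscle expresses, an alternative chosen after seeing the data, left 1 higher and a median of 0.05. No paired analysis was possible because each genotype has 1 library. Summing Eno1 and Eno1b, also added after seeing the data, left 2 lower, 2 higher and a median of 0.05. The counting intervals were widest, as upper over lower bound, for Car9, Ankrd37, Slc2a3 and Aldoc, leaving aside Hk3, and the spread between animals is not known for any gene.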
